A study of Mus musculus with 4 samples.

Results

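Solute carriers are membrane proteins that move amino acids, sugars, ions, metals, vitamins and metabolites across membranes, and their gene symbols begin with Slc or Slco. Members were taken by symbol, from the authors' deposited sheet of probes called changed with berberine in C17.2 cells, an immortalised mouse neural progenitor line. The rule found 155 genes on 166 probes, out of 8519 genes and 9190 probes that carry a single symbol in that sheet. Of these, 152 are carriers and 3 only share the symbol, namely Slc7a6os, Slc9a3r2 and Slc22a13b-ps. Carriers without a probe in the sheet have no name here and were not analysed, among them Slc7a11, the cystine-glutamate exchanger, and Slc2a1, a main glucose carrier.

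All 4 samples came from C17.2 cells kept for 12 h in 7.38 mM AAPH, an azo compound that releases peroxyl radicals. The 2 control samples had AAPH alone, and the 2 berberine samples also had 1.69 µM berberine, a plant alkaloid. Cells without AAPH were not analysed here, and the labels do not say whether the samples of a group were separate cultures, so p-values measure the spread between these samples only. Each sample was read on 1 single-colour array of 26423 probes.

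Plasma-membrane carriers set what a cell takes up and expels. Amino acid exchangers of the Slc7 family pair with a heavy chain of the Slc3 family, and most sodium-coupled carriers are driven by the gradient that the sodium pump makes. Mitochondrial carriers of the Slc25 family sit in the inner membrane and exchange ADP for ATP, phosphate, citrate, malate, aspartate and other metabolites between matrix and cytosol, which links the respiratory chain to the rest of the cell. Nucleotide-sugar carriers of the Slc35 family supply the Golgi and the endoplasmic reticulum with substrates for glycosylation.

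With berberine, carriers moved both ways in every class of at least 2 genes. The ADP/ATP carrier Slc25a4, the cation-chloride cotransporter Slc12a2, the phosphate importer Slc20a1 and the zinc importer Slc39a6 fell between 19.3-fold (Slc25a4) and at least 61.9-fold (Slc20a1), while the mitochondrial phosphate carrier Slc25a3, the bicarbonate exchanger Slc4a2 and the glutamine carrier Slc1a5 rose between 2.22-fold and 2.78-fold. Of the 155 genes, 88 were called higher and 67 lower by limma at an adjusted p under 0.05. Fold changes are differences of quantile-normalized log2 intensity, berberine minus control, given with the fit's standard error after ± (n = 2 arrays per group), and every adjusted p comes from limma over all probes. Among the named genes as a whole 99.7% were called either way, 55.6% higher and 44.1% lower, against 56.8% and 43.2% of the members, so these shares lie close to the background. Among all probes of the array 62.7% were called, 40.2% higher and 22.5% lower. Because the sheet holds only probes that the authors had called on these same arrays, with no ratio between −1 and 1, passing the test was close to fixed for the members and is a description. In the authors' deposited table the ratios nearest that gap were 1.03 for Slc29a3 and −1.02 for Slc25a17. Probes with a ratio inside the gap are not in the sheet and so have no name.

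Falls were larger than rises. The fitted log2 fold changes ran from −8.86 to 3.61. The lowest, that of Slc24a5, depends on the floor set under the values and is no exact fold. At −2 or below were 40 members (25.8%) and at 2 or above 21 (13.5%), against 30.3% and 18.8% of the named genes. Both controls lay apart from both berberine arrays in deposited intensity in 146 members (94.2%), against 96.4% of named genes and 66.9% of all probes. For 25 members the berberine group, and for 9 the control group, was at background, taken as an authors' detection p of 0.01 or more. A fold change of such a gene is written as "at least", a bound that sets the detected group against the higher of its own value and the lowest detected value on each dim array.

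Scaling decided many of the rises. Quantile normalization put the median log2 difference of all probes at 0.39, whereas it was 0.13 without further scaling and 0.74 with arrays centred on their medians. On the values as deposited 51 members were called higher and 66 lower, against 31.1% and 43.3% of named genes (74.4% either way) and 13.4% and 19.8% of all probes (33.2% either way). The calls lost were 37 rises and 1 fall, that of the creatine carrier Slc6a8, and no member changed sign between these scalings. Named rises that lost their call are marked below by their adjusted p on the deposited values.

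**Figure D1:**
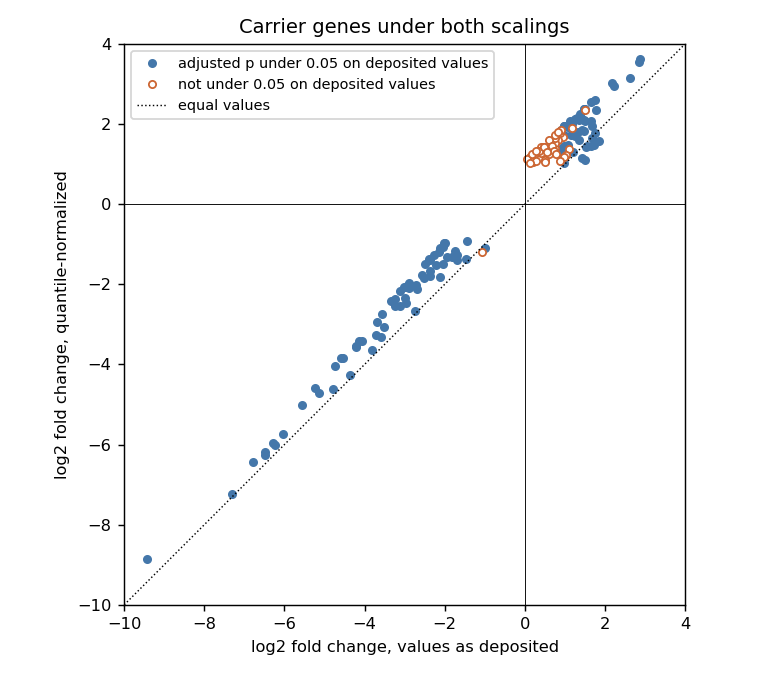
Log2 fold change (berberine minus control) of the 155 carrier-family genes on the values as deposited (x axis) and after quantile normalization (y axis), 1 point a gene; open points are genes with no call on the deposited values. Most points lie above the line of equal values, and the open points are 37 rises and 1 fall.

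As classed by family number, the mitochondrial carriers and the plasma-membrane amino acid, sugar, ion and metal carriers were split alike. Of the 26 Slc25 genes 15 rose and 11 fell (42.3% lower), and of the 75 plasma-membrane genes 41 rose and 34 fell (45.3% lower), beside 44.1% of named genes. Medians of the log2 fold change were 1.21 and 1.11, and 1.22 over all named genes. Since no member lies near 0, such a median falls within the risen genes and says little of the falls. Falls of log2 2 or more made up 30.8% of the mitochondrial and 29.3% of the plasma-membrane set, and rises of that size 7.69% and 14.7%. The plasma-membrane set holds some carriers of internal membranes. Without those, 38 of the remaining 61 genes rose and 23 fell. The sets are described here and the difference between them was not tested.

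**Figure D2:**
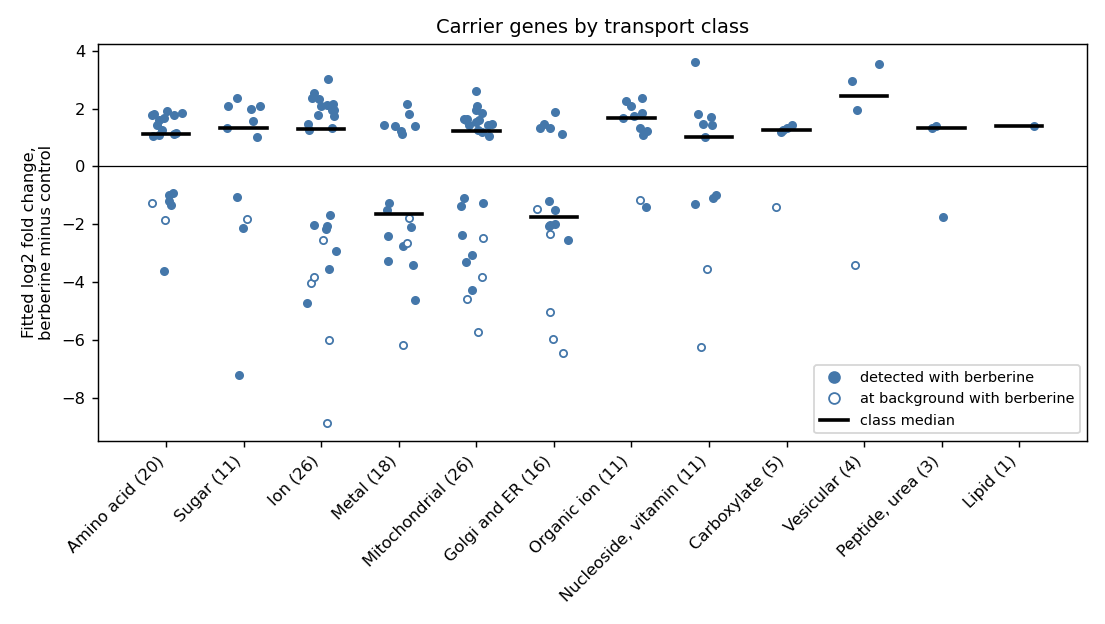
Fitted log2 fold change (berberine minus control) of each carrier gene by transport class, with the number of genes in brackets; open points were at background with berberine and bars are class medians. The medians of metal and of Golgi and ER carriers lie below 0 (−1.66 and −1.74), and those of the other classes above it.

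The share that fell moved with the level in the controls. With named genes divided by their mean control level into 3 equal bins, 23.6%, 48% and 60% of the members fell from the lowest to the highest bin, and 24.3%, 41% and 66.8% of the named genes. Some such trend was built in, because the control level enters both the bin and the fold change. A gene dim in the controls also has little room for a fall large enough to enter the sheet. Of the 12 Slc25 genes in the highest bin 7 fell, and of the 24 plasma-membrane genes there 15 fell. The share also moved with the probe series, which the start of a probe's identifier gives. Among Slc25 genes on PH_mM probes 11 of 14 rose and on mMC probes 3 of 9, where 65.8% and 42.9% of named genes rose. In the plasma-membrane set those shares were 57.6% and 53.8%. The part of level and probe series in the split was not tested.

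**Figure D3:**
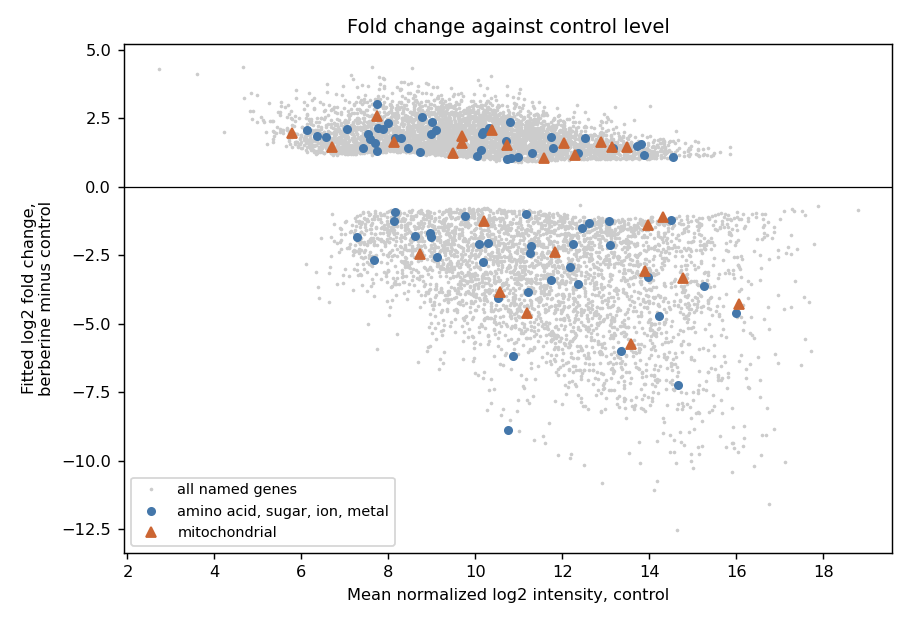
Fitted log2 fold change (berberine minus control) against the mean normalized log2 intensity in the 2 controls, for all 8519 named genes (grey), the 75 plasma-membrane carriers (circles) and the 26 mitochondrial carriers (triangles). Both carrier sets lie within the grey cloud, where large falls are found among genes bright in the controls.

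The 11 Slc25 genes that fell include carriers of nucleotides, carboxylates and amino acids. The probe of Slc25a4, the ADP/ATP translocase ANT1, read 65454 and 49621 in the controls and 3026 and 2560 with berberine. Both berberine arrays lay far below both controls, and the gene fell by 4.27 ± 0.118 on the log2 scale (19.3-fold, adjusted p = 0.000197). Slc25a11, which exchanges oxoglutarate for malate, read 25356 and 24248 in the controls and 1956 and 2189 with berberine, with no overlap (10-fold lower, adjusted p = 0.000573). Slc25a1, the citrate carrier that exports acetyl units for lipid synthesis, went from 15857 and 13516 to 1221 and 1332. The groups did not overlap, and the fall was 8.35-fold. Slc25a12, the calcium-regulated aspartate-glutamate carrier of the malate-aspartate shuttle, read 3730 and 2804 in the controls and was at background with berberine at 70 and 106, at least 17.4-fold lower. Slc25a11 and Slc25a12 are both known as parts of that shuttle.

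Slc25a33, a pyrimidine nucleotide carrier, read 13278 and 11233 in the controls against 147 and 237 with berberine, where it was at background. This was the largest fitted fall of the Slc25 genes, at least 53.1-fold. Slc25a36, the other pyrimidine nucleotide carrier of the family, fell by 1.26 ± 0.129, from 1996 and 1509 to 374 and 345. Slc25a44, a carrier of branched-chain amino acids, was at least 10-fold lower, and Slc25a30, which is related to the uncoupling proteins, at least 3.15-fold lower. The peroxisomal member of the family, Slc25a17, fell by 1.08 ± 0.122, and under median centring it lost its call (adjusted p = 0.204).

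The rises in the family reached 6.05-fold at most. Slc25a3, which imports the phosphate for ATP synthesis, read 12250 and 10671 in the controls and 39123 and 33237 with berberine. Both berberine arrays were above both controls, a rise of 1.46 ± 0.114 (adjusted p = 0.00129). Slc25a51, which imports NAD, rose from 8693 and 7597 to 25352 and 27094, by 1.64 ± 0.167. Slc25a40, related to the mitochondrial glutathione carrier, rose from 5844 and 4515 to 14314 and 11985 (3.05-fold). The groups did not overlap in either gene, and both kept their call on the deposited values. Thus the ADP/ATP carrier Slc25a4 and the phosphate carrier Slc25a3 moved in opposite directions. Slc25a5, another ADP/ATP carrier, had no named probe, so the supply of ATP synthase cannot be read from this pair.

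Carriers of iron into mitochondria also moved apart. Slc25a37 (mitoferrin 1) read 15609 and 15087 in the controls and 5494 and 5650 with berberine, so that it fell by 1.38 ± 0.177 (adjusted p = 0.00451). Slc25a28 (mitoferrin 2) read 10427 and 8518 in the controls and 29722 and 25797 with berberine, a rise of 1.44 ± 0.111 (adjusted p = 0.00122). On the arrays the 2 groups were apart for both genes. Slc25a38, the glycine carrier needed for haem synthesis, rose by 1.18 ± 0.109, but not on the deposited values (adjusted p = 0.0597).

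Among the remaining risen Slc25 genes, Slc25a48 had the largest fitted rise of the family, from 354 and 189 to 788 and 951 (log2 2.60 ± 0.255, adjusted p = 0.00221). Slc25a45 rose 4.27-fold, from 2195 and 1748 to 5226 and 4753. Slc25a53, at background in the controls, was at least 2.22-fold higher, and Slc25a2, an ornithine carrier that was also at background there, at least 2.59-fold. Calls ended on the deposited values for Slc25a20, the carnitine-acylcarnitine carrier (adjusted p = 0.0735), Slc25a43 (0.11), Slc25a47 (0.131), Slc25a32 (0.158), Slc25a14 (0.379) and Slc25a46 (0.67). Slc25a14 and Slc25a46 had overlapping deposited intensities, 4407 and 3704 against 7573 and 4303 for Slc25a14 and 1190 and 898 against 1099 and 1230 for Slc25a46. Without control replicate 1 the adjusted p was 0.0837 for Slc25a14 and 0.0748 for Slc25a32, and without control replicate 2 it was 0.0795 and 0.0694.

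**Figure D4:**
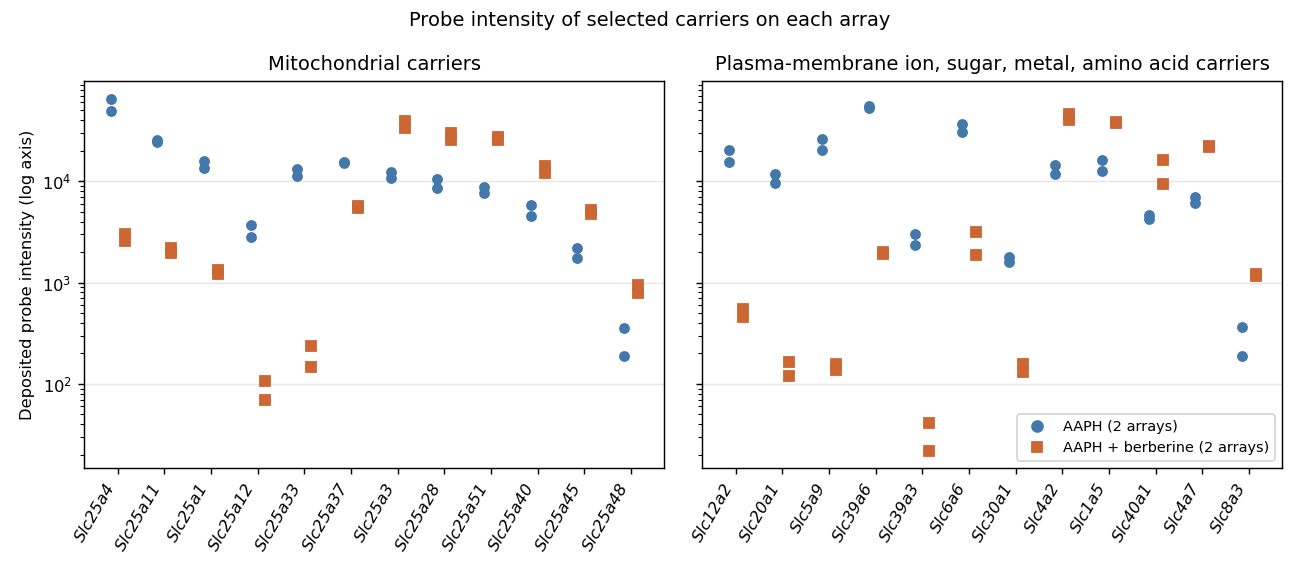
Deposited probe intensity (log axis) of 12 mitochondrial and 12 plasma-membrane carriers on each array; circles are the 2 AAPH controls and squares the 2 arrays with AAPH and berberine. In every gene drawn the groups are apart, with Slc25a4 falling from 65454 and 49621 to 3026 and 2560 and Slc25a3 rising from 12250 and 10671 to 39123 and 33237.

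Of 26 ion carriers 14 rose and 12 fell (53.8% higher, beside 55.6% of named genes). In the Slc12 family of cation-chloride cotransporters, which set cell volume and intracellular chloride, 5 of 6 measured genes fell, beside 44.1% of named genes. Slc12a2 (NKCC1), which loads cells with chloride, read 20223 and 15494 in the controls and 553 and 457 with berberine. The groups were far apart, and the gene fell by 4.72 ± 0.157 on the log2 scale (26.3-fold, adjusted p = 0.000268). The potassium-chloride exporters Slc12a4 (KCC1) and Slc12a7 (KCC4) fell as well, 7.67-fold and 4.47-fold. Slc12a9 was at least 14.2-fold lower. Slc12a3, the thiazide-sensitive cotransporter of the kidney, rose from 263 and 315 to 639 and 748.

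Both phosphate importers of the Slc20 family fell, beside 44.1% of named genes. Slc20a1 read 11872 and 9553 in the controls and 119 and 165 with berberine, where it was at background, at least 61.9-fold lower (adjusted p = 0.000189). Slc20a2 went from 7029 and 5217 to 307 and 348, with no overlap, 11.8-fold lower. Slc9a8, a sodium-proton exchanger of the Golgi, was at background with berberine and at least 4.14-fold lower. Slc24a6, listed in assembly GRCm38.p6 as Slc8b1 and known as the mitochondrial sodium-calcium exchanger, fell by 2.08 ± 0.120. Slc24a5, a pigment-cell exchanger, read 2682 and 2310 in the controls and −11 and 13 with berberine. Its fitted fall depends on the floor set under the values, and by the bound it was at least 12.9-fold lower.

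All 4 measured genes of the Slc4 family, which is known for bicarbonate carriers, rose and kept their call on the deposited values. Of named genes 55.6% were called higher, and 31.1% on the deposited values. Slc4a2, an anion exchanger, read 14472 and 11818 in the controls and 46008 and 40605 with berberine (2.78-fold, adjusted p = 0.00119). Slc4a7, a sodium-bicarbonate cotransporter, rose from 7050 and 6166 to 22467 and 22052, by 1.79 ± 0.143. Slc4a4, the electrogenic cotransporter of glia, rose from 256 and 275 to 700 and 609, and Slc4a11 from 741 and 640 to 1484 and 1231. In each of these genes both berberine arrays were above both controls.

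The plasma-membrane sodium-proton exchanger Slc9a5 rose by 1.73 ± 0.133. The 3 sodium-calcium exchangers of the Slc8 family rose, beside 55.6% of named genes. Slc8a3, with 364 and 187 in the controls and 1228 and 1151 with berberine, had the largest rise of the ion carriers, 3.02 ± 0.240 on the log2 scale. Slc8a1, at background in the controls, was at least 4.28-fold higher, a call that ended without berberine replicate 1 (adjusted p = 0.0744) or replicate 2 (0.0643). Slc8a2 rose by 1.25 ± 0.230 and lost its call on the deposited values (0.17), without control replicate 1 (0.0899) and without control replicate 2 (0.0862).

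Of the potassium-dependent sodium-calcium exchangers, Slc24a3 rose from 2844 and 2330 to 9578 and 8088 (5.12-fold), while Slc24a4 lost its call on the deposited values (adjusted p = 0.434), where its groups overlapped. In the Slc26 family of anion exchangers Slc26a6 fell by 1.67 ± 0.135 and Slc26a11 rose by 1.94 ± 0.186. Slc26a5, the motor protein of outer hair cells, rose by 2.34 ± 0.333, from 351 and 284 to 1267 and 631. That call ended on the deposited values (adjusted p = 0.0663), without control replicate 1 (0.0666) and without control replicate 2 (0.0672).

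Metal carriers fell more often than they rose, 11 of 18 (61.1%, beside 44.1% of named genes). The median control level of the class was 11.5. Of named genes 41% fell in the middle bin of control level, up to 11.64, and 66.8% in the highest bin. In the ZIP family, which brings zinc and other metals into the cytosol, Slc39a6 read 55211 and 53277 in the controls and 1917 and 1998 with berberine. The replicates were close and the groups far apart, and the gene fell by 4.62 ± 0.158 on the log2 scale (24.6-fold, adjusted p = 0.000277). Slc39a3 went from 3053 and 2370 to background at 22 and 41, at least 14.1-fold lower. Slc39a14, which also carries iron, fell from 7049 and 5740 to 1366 and 1372, and Slc39a10 fell by 1.26 ± 0.114 and Slc39a11 by 2.09 ± 0.121. The ZIP genes Slc39a2 and Slc39a4 lost their call on the deposited values (adjusted p = 0.109 and 0.888), and that of Slc39a4 also ended without control replicate 1 (0.0709) or replicate 2 (0.08).

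Zinc exporters of the Slc30 family fell in 4 of 5 measured genes, beside 44.1% of named genes. Slc30a1, the zinc exporter of the plasma membrane, read 1806 and 1609 in the controls and 132 and 156 with berberine, 6.7-fold lower with no overlap. Slc30a5 and Slc30a6, which load the secretory pathway with zinc and work as a pair, had log2 fold changes of −3.27 ± 0.132 and −2.42 ± 0.146. Slc30a9 was at least 1.52-fold lower. The exception was Slc30a7, also of the Golgi, which rose from 2004 and 1757 to 5254 and 4644 (log2 2.15 ± 0.120, adjusted p = 0.000652).

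The iron carriers Slc40a1 and Slc11a2 rose, and the copper carriers were split. Ferroportin Slc40a1, the iron exporter, rose from 4637 and 4276 to 16258 and 9353 (1.82 ± 0.203, adjusted p = 0.0031), and Slc11a2 (DMT1), which brings in ferrous iron, from 4847 and 4256 to 10177 and 8089. Both berberine arrays were above both controls for each. The copper importer Slc31a1 rose by 1.23 ± 0.165, but not on the deposited values (adjusted p = 0.0941) or without control replicate 2 (0.0531), and its relative Slc31a2 fell from 4814 and 4042 to 239 and 264 (10.6-fold). Of the magnesium carriers Slc41a2 was at least 2.93-fold lower, and the rise of Slc41a3 (1.43 ± 0.117) lost its call on the deposited values (0.219).

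Promoters are shown for 5 carriers picked by hand and not by a rule, the metal carriers Slc30a1, Slc30a5 and Slc39a3 and the mitochondrial pair Slc25a4 and Slc25a3. The sequences are from RefSeq (GRCm38.p6), are the 250 bases before the annotated start, and run 5′ to 3′ on the strand of the gene. Capitals mark matches to the metal response element (MRE), the site of the zinc-sensing factor MTF-1, searched as TGCACNC or TGCGCNC on both strands.
Slc30a1, chr1:191906531-191906780, plus strand: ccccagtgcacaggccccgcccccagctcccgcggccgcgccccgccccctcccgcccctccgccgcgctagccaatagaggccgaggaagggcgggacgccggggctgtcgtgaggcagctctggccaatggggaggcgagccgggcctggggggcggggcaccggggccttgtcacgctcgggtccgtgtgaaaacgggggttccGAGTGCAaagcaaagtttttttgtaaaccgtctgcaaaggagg
Slc30a5, chr13:100833428-100833677, minus strand: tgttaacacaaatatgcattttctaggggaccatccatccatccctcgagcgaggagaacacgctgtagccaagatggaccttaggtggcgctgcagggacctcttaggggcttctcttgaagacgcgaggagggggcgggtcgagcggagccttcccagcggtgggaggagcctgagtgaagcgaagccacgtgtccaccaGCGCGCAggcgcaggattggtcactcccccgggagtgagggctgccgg
Slc39a3, chr10:81037316-81037565, minus strand: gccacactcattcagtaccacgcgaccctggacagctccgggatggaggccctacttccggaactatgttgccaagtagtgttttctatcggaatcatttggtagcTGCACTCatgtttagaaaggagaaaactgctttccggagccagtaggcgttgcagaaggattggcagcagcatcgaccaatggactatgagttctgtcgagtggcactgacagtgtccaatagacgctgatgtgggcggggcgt
Slc25a4, chr8:46211063-46211312, minus strand: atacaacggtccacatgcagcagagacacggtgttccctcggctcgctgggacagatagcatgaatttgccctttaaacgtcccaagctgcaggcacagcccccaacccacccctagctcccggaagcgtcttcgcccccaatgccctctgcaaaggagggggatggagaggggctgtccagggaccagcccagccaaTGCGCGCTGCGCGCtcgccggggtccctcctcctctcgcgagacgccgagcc
Slc25a3, chr10:91123968-91124217, minus strand: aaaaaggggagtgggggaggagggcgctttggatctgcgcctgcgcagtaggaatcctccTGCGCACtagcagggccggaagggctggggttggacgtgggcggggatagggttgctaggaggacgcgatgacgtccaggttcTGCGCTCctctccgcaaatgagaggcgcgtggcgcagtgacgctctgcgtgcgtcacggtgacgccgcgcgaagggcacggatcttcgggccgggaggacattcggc

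The MRE letters were found before the start in all 5, in the 4 carriers that fell and in Slc25a3, which rose. Because the 5 were picked by hand, a match in all of them is no result. Over the 300-base windows around a start, 7 of the 13 metal carriers with a promoter entry held a match (53.8%), of which 6 fell and 1 rose. Of the 6 without a match 3 fell and 3 rose. A match was found for 39.8% of the 108 carriers with an entry, and for 28.2% of all 27025 genes listed, so that the pattern is common. Of the 20 mitochondrial carriers with an entry 25% held an MRE match. The antioxidant response element, searched as TGACNNNGC, was found for 18.5% of carriers and 14% of all genes, and for 30% of the 20 mitochondrial carriers with an entry. The C/EBP-ATF response element (TGATGNAA) stood at 3.7% and 4.51% and the cyclic AMP response element (TGACGTCA) at 0.926% and 2.03%, each on both strands. These are matches of letters and say nothing of binding.

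Of 20 amino acid carriers 13 rose and 7 fell (65% higher, beside 55.6% of named genes). The 3 measured genes of the Slc1 family rose. Slc1a5 (ASCT2), which brings glutamine into dividing cells, read 16156 and 12528 in the controls and 38377 and 38018 with berberine, a rise of 1.15 ± 0.137 (2.22-fold, adjusted p = 0.00362). Slc1a4 (ASCT1), a carrier of serine and alanine, rose from 10127 and 8862 to 29032 and 26036, by 1.42 ± 0.122. Slc7a1 (CAT1), the main arginine and lysine importer, rose from 25635 and 18149 to 67165 and 55747. None of these overlapped between groups. Slc1a3 (GLAST), the glial glutamate carrier, read 381 and 337 against 612 and 699 and lost its call on the deposited values (adjusted p = 0.0555).

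The parts of the leucine exchanger moved apart. Its light chain Slc7a5 (LAT1) fell from 8301 and 5894 to 2093 and 1591 (log2 −1.33 ± 0.155, adjusted p = 0.00347). Its heavy chain Slc3a2 (4F2hc), which brings the light chains to the cell surface, rose from 442 and 366 to 829 and 649 (1.78 ± 0.147), but not on the deposited values (adjusted p = 0.0768). Another light chain, Slc7a8 (LAT2), had overlapping deposited intensities, 3483 and 2341 against 3302 and 3658, and its call ended there (0.526), without berberine replicate 2 (0.0677) and without control replicate 2 (0.0756). Slc7a7, a light chain for export of cationic amino acids, fell by 0.92 ± 0.133, with a call that ended without control replicate 1 (0.0562) or replicate 2 (0.055).

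In the Slc6 family the taurine carrier Slc6a6, which supplies an osmolyte, had the largest fall of the amino acid class, from 36942 and 30963 to 3143 and 1857 (12.4-fold, adjusted p = 0.000602). The creatine carrier Slc6a8 fell by 1.21 ± 0.118, a call lost on the deposited values (adjusted p = 0.0546) and under median centring (0.2). Slc6a3, the dopamine carrier of dopaminergic neurons, rose from 1738 and 1620 to 3871 and 3227 (3.79-fold), the largest fitted rise of the class. Calls of Slc6a2 and Slc6a17 ended on the deposited values (0.407 and 0.603), and that of Slc6a17 also without control replicate 1 (0.0577) or replicate 2 (0.0688).

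Amino acid carriers known from lysosomes fell as well. Slc38a9, an arginine sensor upstream of mTORC1, read 721 and 653 in the controls and was at background with berberine at 100 and 145, at least 3.2-fold lower. Slc36a1, which exports amino acids from lysosomes, fell by 0.98 ± 0.121, from 3471 and 3001 to 847 and 748. Its relative Slc36a3 was at least 1.98-fold lower, a call that ended without berberine replicate 1 (adjusted p = 0.189), berberine replicate 2 (0.155) or control replicate 2 (0.0789). Slc3a1 and Slc7a13, at background in the controls, were at least 3.23-fold and 3.06-fold higher, and the rise of Slc7a3 lost its call on the deposited values (0.0698).

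Of 11 sugar carriers and relatives 7 rose and 4 fell (63.6% higher, beside 55.6% of named genes). Slc5a9 (SGLT4), a sodium-coupled mannose and fructose carrier, read 26014 and 20510 in the controls and 138 and 156 with berberine, and on this probe the gene fell by 7.23 ± 0.112 (adjusted p = 0.000186). Its other probe read 223 and 177 in the controls and was at background with berberine at 62 and 75, at least 1.27-fold lower. Slc45a4 fell from 10617 and 7912 to 1504 and 1352. Slc50a1, the mammalian SWEET-type carrier, rose from 14791 and 12796 to 47926 and 51077 (2.99-fold). Slc5a6, which imports biotin and pantothenate, rose from 1887 and 1571 to 4432 and 3439, and Slc2a4, the insulin-regulated glucose carrier GLUT4, from 830 and 702 to 1603 and 1715.

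Slc2a7 rose by 2.38 ± 0.132, and Slc5a12, at background in the controls, was at least 3.03-fold higher. The lysosomal Slc2a6 fell by 1.06 ± 0.162, with an adjusted p of 0.0632 without control replicate 1 and 0.0552 without control replicate 2. Slc45a3 was at least 1.17-fold lower. The calls of Slc2a13, a myo-inositol carrier, and of Slc2a8 ended on the deposited values (adjusted p = 0.148 and 0.761), where the groups of Slc2a8 overlapped.

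Carriers of the Golgi and endoplasmic reticulum fell in 11 of 16 genes (68.8%, beside 44.1% of named genes), all of them in the Slc35 family. Their median control level was 11.65, and of named genes in the highest bin of control level, above 11.64, 66.8% fell. Slc35a3, which brings UDP-N-acetylglucosamine into the Golgi, read 4976 and 3951 in the controls and was at background with berberine at 30 and 54, at least 25.8-fold lower (adjusted p = 0.000186). Slc35g1 was at least 42-fold lower, from 7009 and 5770 to 71 and 95, and Slc35f1 at least 23.2-fold. The UDP-galactose carrier Slc35a2 fell 2.83-fold, from 4439 and 3418 to 697 and 689, and its other probe 2.41-fold. Slc35b2, which carries the sulfate donor PAPS, fell from 4716 and 3972 to 690 and 489. The other PAPS carrier, Slc35b3, rose from 4842 and 4147 to 11052 and 8201. The glucose-6-phosphate carrier Slc37a4 rose by 1.89 ± 0.158 and the calls of it (adjusted p = 0.0641) and of Slc35b4 (0.163) ended on the deposited values, while those of Slc37a3 and Slc35e2 held. Slc35a4, Slc35e3, Slc35f5 and Slc35f6 fell between 2.29-fold and 5.82-fold, and Slc35a5 and Slc35d2, both at background with berberine, were at least 2.31-fold and 3.95-fold lower.

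Vitamin and nucleoside carriers held some of the largest changes. The reduced folate carrier Slc19a1 read 6569 and 5503 in the controls and was at background with berberine at 60 and 74, at least 38.8-fold lower (adjusted p = 0.000186). The nucleoside carriers Slc29a1 and Slc29a2 fell as well, Slc29a2 at least 7.73-fold and Slc29a1 by 1.31 ± 0.189, the latter with a call that ended without control replicate 2 (adjusted p = 0.0587) and under median centring (0.0592). The vitamin C carrier Slc23a2 fell from 1778 and 1511 to 395 and 366, and the proton-coupled folate carrier Slc46a1 from 1568 and 1322 to 364 and 357. Slc46a3, a lysosomal carrier, had the largest rise of all members, from 371 and 235 to 1856 and 2519 (12.2-fold, log2 3.61 ± 0.243, adjusted p = 0.000926). The lysosomal nucleoside carrier Slc29a3 rose by 1.03 ± 0.115. The calls of Slc19a3, Slc23a1 and Slc23a3 ended on the deposited values (0.124, 0.179 and 0.23).

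Of 11 organic ion carriers 9 rose and 2 fell (18.2% lower, beside 44.1% of named genes). Their median control level was 8.43, and of named genes in the lowest bin of control level, below 9.41, 24.3% fell. All 5 organic anion carriers of the Slco family rose on the probe that stands for the gene. Slco5a1 went from 1341 and 1126 to 3213 and 3205 (4.78-fold), Slco1a6 from 392 and 287 to 906 and 980, and Slco3a1, on its brighter probe, from 3232 and 2518 to 8469 and 7656. Slco1a5 rose by 1.84 ± 0.134. Slco1c1, a thyroxine carrier at background in the controls, was at least 2.63-fold higher, with an adjusted p of 0.0551 without control replicate 1 and 0.063 without control replicate 2. The carnitine importer Slc22a5, at background with berberine, was at least 2.11-fold lower and Slc10a3 fell by 1.39 ± 0.114. Slc10a6 rose 3.33-fold, and the calls of Slc10a7 (adjusted p = 0.0914) and Slc22a23 (0.0729) ended on the deposited values.

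In the vesicular class 3 of 4 genes rose, beside 55.6% of named genes. Slc17a3, an organic anion carrier, rose from 510 and 323 to 3215 and 2703 (11.8-fold, adjusted p = 0.000406), and Slc18b1, a vesicular polyamine carrier, from 891 and 772 to 4610 and 3267 (7.8-fold). Slc32a1, the vesicular GABA carrier of inhibitory neurons, rose from 649 and 550 to 1159 and 1182. The lysosomal sialic acid exporter Slc17a5 fell to background, from 1536 and 1206 to 80 and 84, at least 6.9-fold lower.

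The carboxylate class, set by family number and not by the substrate of each gene, gave mostly calls that the scaling decided. Slc16a10, Slc16a11 and Slc16a13 lost theirs on the deposited values (adjusted p = 0.279, 0.263 and 0.764), and that of Slc16a13 ended under median centring too (0.0689). Slc13a4 was at least 2.24-fold higher and Slc16a6 at least 1.45-fold lower. The lysosomal peptide carrier Slc15a4 fell from 5943 and 5098 to 895 and 952 (3.39-fold). Of the urea carriers Slc14a1 rose 2.67-fold, and Slc14a2 lost its call on the deposited values (0.524) and without control replicate 2 (0.0624). The rise of Slc27a2, an acyl-CoA synthetase of fatty acid uptake, also ended on the deposited values (0.0692). Of the genes that only share the symbol, Slc7a6os rose 8.92-fold, the scaffold gene Slc9a3r2 rose 5.21-fold and Slc22a13b-ps fell 2.6-fold.

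Different probes of a gene disagreed in sign for 4 of the 10 genes with several probes. Slc25a10, the dicarboxylate carrier, read 5274 and 4120 in the controls and 541 and 448 with berberine on its brighter probe, on which it fell by 2.38 ± 0.153. On its other probe it read 372 and 297 against 740 and 718, a rise of 2.03 ± 0.109, although both probes carry the same RefSeq accession. Slc38a1, a glutamine carrier, rose by 1.68 ± 0.124 on its brightest probe, a call lost on the deposited values (adjusted p = 0.0592), and gave −3.73 ± 0.160 on another. Its remaining probe was at background with berberine at 1 and 36, at least 1.7-fold lower, and all 3 carry the same accessions. The riboflavin carrier Slc52a2 rose by 1.81 ± 0.145 on one probe, a call also lost there (0.0629), and on the other was at background with berberine, at least 7-fold lower. Slco3a1 rose by 2.07 ± 0.119 and, on a probe for another transcript that was at background with berberine, was at least 2.8-fold lower. No direction can be given to these 4 genes as whole transcripts, and for the 145 members with 1 named probe no such check exists.

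**Figure D5:**
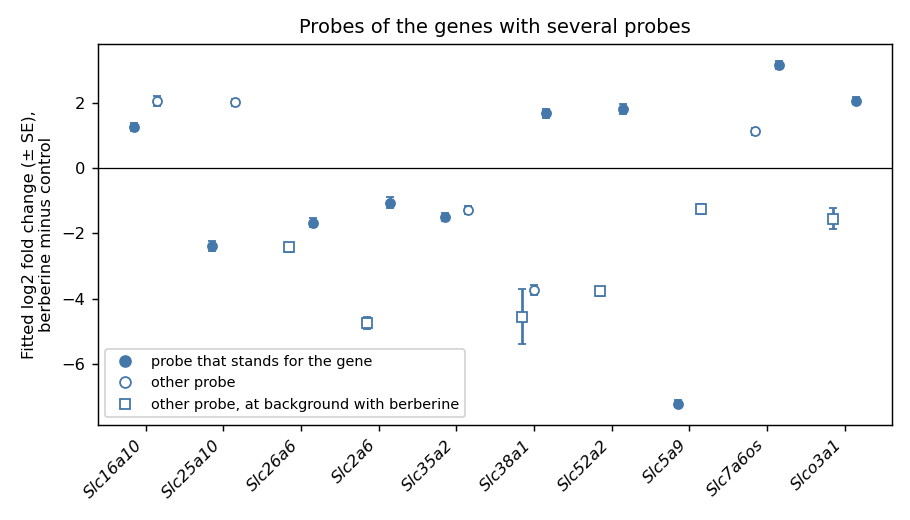
Fitted log2 fold change (berberine minus control) with its SE for each probe of the 10 genes with several named probes; filled points stand for the gene in the counts, and open squares are other probes at background with berberine, whose fitted value is no exact fold. Probes of Slc25a10, Slc38a1, Slc52a2 and Slco3a1 lie on both sides of 0.

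Genes that work with carriers, a list of 34 of which 12 were measured, were 5 higher and 7 lower, with a median log2 fold change of −1.17. The share lower was 58.3%, beside 44.1% of named genes. The median control level of these 12 genes was 14.31, and of named genes in the highest bin of control level, above 11.64, 66.8% fell. Under median centring their median log2 fold change was −0.07. The transferrin receptor Tfrc, the entry point of iron, went from 28873 and 23517 to background at 121 and 153, at least 183-fold lower (adjusted p = 0.000186). Kinases that control the Slc12 cotransporters fell with them, Wnk1 from 24708 and 21293 to 169 and 225 and Stk39 (SPAK) from 3222 and 2737 to 237 and 205. Basigin (Bsg), which escorts monocarboxylate carriers to the cell surface, fell from 61760 and 54355 to 8056 and 8945. Both subunits of the mitochondrial pyruvate carrier rose, Mpc1 from 19138 and 15817 to 88706 and 61687 and Mpc2 from 463 and 374 to 1296 and 1262. Of the outer membrane pores Vdac2 rose by 1.72 ± 0.162 and Vdac3 fell by 1.46 ± 0.116, and Vdac1, with −0.88 ± 0.184, lost its call on the deposited values (adjusted p = 0.27) and turned to 0.23 under median centring (0.272). The copper pump Atp7b and the serine carrier Sfxn1 rose 5.45-fold and 2.09-fold, and the lysolipid carrier Mfsd2a fell 9.4-fold.

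Array medians were 333 and 273 in the controls and 189 and 206 with berberine. Replicates correlated at 0.989 and 0.987 over all probes, and arrays of different groups between 0.831 and 0.833. Of 15 listed neural progenitor markers 6 had a named probe, of which 4 fell and 2 rose, and their summed intensity was 17959 to 20766 in the controls and 4005 to 4367 with berberine. All 6 measured astrocyte markers of 10 listed, one of them the member Slc1a3, all 7 oligodendrocyte markers of 10 and all 3 endothelial markers of 6 rose, with sums of 4335 to 5395 against 7435 to 8497, 24458 to 30108 against 68439 to 84758, and 1134 to 1275 against 1606 to 1712. On the deposited values the rises with a call were 1, 3 and 0 of these. Markers were measured only where the authors had called a probe, and of all named genes 55.6% were higher. The median control levels of these lists were 8.75, 9.87 and 8.22. Of named genes 24.3% fell in the lowest bin of control level, below 9.41, and 41% in the middle bin. Neuron markers were 6 higher and 2 lower of 8 measured among 10 (sums of 21250 to 25675 against 37719 to 38995), microglial markers 1 higher and 1 lower of 8 listed (925 to 1062 against 200 to 272), and fibroblast markers 1 higher and 3 lower of 6 listed (18532 to 23513 against 7479 to 10408). No measured marker was at background in both groups, while defining progenitor markers such as Nes and Sox2 had no named probe. Fewer cells of a type and less RNA per cell cannot be told apart in such samples, and the part of these shifts in the carrier results was not tested.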

How the data were processed

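Total RNA of 4 samples was amplified, labelled with Cy5 and hybridised, per the labels. The deposited table gives a linear intensity per probe and array. Its scanner, background correction and normalization were not given in the sources used. Per the file headers, the authors' deposited sheet adds a detection p-value, a mean intensity, a CV score, a log2 ratio and its p-value for 9800 probes they called. Its groups G1 and G3 were matched to control and berberine by mean intensity (99.9% and 99.2% of probes within 5%). No column was left without a sample (0).

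Intensities were floored at 1, log2-transformed, quantile-normalized and fitted with limma 3.58.1 in R 4.3.3 (lmFit, eBayes) over all 26423 probes, 2 arrays against 2, 2-sided, with Benjamini-Hochberg adjustment and a threshold of 0.05. The script was tested on simulated data. The number of arrays limits the precision. The named probe of highest mean log2 value stands for a gene. Carriers were classed by family number, so some members of the plasma-membrane set lie on internal membranes. Some members also carry other substrates than the class name says, such as the dopamine carrier Slc6a3 in the amino acid class. All Entrez identifiers of the 155 members were found in GRCm38.p6, where 2 symbols differ. The naming rule took, per class, up to 3 rises and 3 falls past the threshold ranked by bounded fold change, 30 of 53 listed well-known carriers, and genes whose probes disagree, 81 in all; the other members were named after their values were seen. Members and lists were chosen with earlier results of these data known. Replicate numbers share no stated batch, and the deviations of same-numbered arrays correlated at −0.0156, so they were not treated as pairs. Some members are counted but not reported here by name.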

Additional observations from a re-analysis of the deposited data

How the results depend on the processing

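Of the 155 members, 117 kept direction and call on the values as deposited and 149 under median centring. All 155 kept direction and call with a floor at 32, with only probes detected in at least 1 group, and with a replicate block. The filter on detection in at least 1 group removed no member. Groups at background at their bound also left all 155, but that setting reuses the adjusted p of the main fit, so no call could change. The replicate block left the counts at 88 higher and 67 lower (41 and 34 plasma-membrane, 15 and 11 mitochondrial, 30 and 21 other classes, 5 and 7 partners). On the values as deposited the numbers higher were 51 in all, 25 plasma-membrane, 8 mitochondrial and 16 in other classes, and the medians 0.41, 0.27, 0.55 and 0.47, with −0.69 for partners. Median centring gave medians of 1.02, 0.88, 1.16, 1.08 and −0.07. Keeping only probes detected in both groups, a filter that the falls themselves decide, left 42, 7 and 11 lower (all members, mitochondrial, other classes) and medians of 1.00, 0.92, 1.09, 1.00 and −0.89. The probe with the lowest mean gave 1.34 (mitochondrial) and 1.11 (other classes), the mean of a gene's probes 1.11 (other classes), and bounds 1.16 (mitochondrial). Without carriers of internal membranes the plasma-membrane counts were 38 higher and 23 lower and the median 1.27. Without Slc25a17 the mitochondrial counts were 15 and 10. Leaving out 1 array at a time gave 78 to 87 higher and 63 to 66 lower, with medians from 1.11 to 1.24 (all members), 0.9 to 1.19 (plasma-membrane), 1.16 to 1.23 (mitochondrial), 1.18 to 1.26 (other classes) and −1.29 to −1.05 (partners); 15 members lost their call in at least 1 of these fits. With the probe of lowest mean the direction turned for Slc25a10 (2.03), Slc38a1 (−4.55), Slc52a2 (−3.78) and Slco3a1 (−1.55), and with the mean of the probes for Slc38a1 (−2.20) and Slc52a2 (−0.98), while Slc25a10 and Slco3a1 lost their call. The probes of lowest mean of Slc38a1, Slc52a2 and Slco3a1 were at background with berberine, so these values are no exact folds, and their bounds are at least 1.7-fold, 7-fold and 2.8-fold lower. The cause was not tested. Signal near background limits every fall to a bound where the probe was not detected with berberine.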
